A study of Mus musculus with 18 samples.

Results

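The genes described are those of adenosine receptors and adenosine turnover: Adora1, Adora2a, Adora2b and Adora3, Nt5e, Entpd1, Adk, Ada, Slc29a1 and Slc28a1. They were chosen by name and not by a measured value, though with earlier results of these data known. They make up 10 of the 21153 genes with a named probe on the array. RNA of 18 mouse livers was hybridized to single-colour Agilent arrays, 1 array per mouse. All mice were C57BL/6 males that received a diet with 10% fat (low fat diet, LFD) or 60% fat (high fat diet, HFD) from 6 weeks of age. After 10 weeks of diet the treated mice had 5 rounds of methotrexate at 50 mg/kg into the peritoneum, and livers were taken 1 week after the last round. There were 4 LFD mice and 4 HFD mice without treatment, 5 treated mice on LFD (LFD MTX50) and 5 treated mice on HFD (HFD MTX50). The feeding model measures the whole liver of 1 sex and 1 strain at 1 time, and the labels give the untreated mice as having had no treatment, with no mention of a vehicle.

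Adenosine acts on cells from outside through G protein-coupled receptors: those encoded by Adora1 and Adora3 lower cyclic AMP, while those of Adora2a and Adora2b raise it. Outside the cell CD39 (Entpd1) breaks ATP and ADP down to AMP, from which CD73 (Nt5e) makes adenosine; inside, adenosine kinase (Adk) turns it back into AMP and adenosine deaminase (Ada) into inosine, and nucleoside transporters carry it across the membrane. Methotrexate inhibits dihydrofolate reductase and, as polyglutamates, the AICAR transformylase of purine synthesis, and adenosine release is a long-discussed part of its anti-inflammatory action.

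A level below is the log2 of the processed spot signal minus the 75th percentile of all spots of that array, so 0 marks a probe as bright as that percentile and a difference of 1 between groups is 2-fold. Levels depend on each probe's own brightness, so only the same probe is compared between livers. A gene was called when the adjusted p of limma, a linear model with moderated variances over all 35735 kept probes, was below 0.05. The exact permutation test given beside it is 2-sided and runs over all regroupings of the arrays of both groups; its smallest possible p is 0.029 for 4 against 4 mice and 0.0079 for 4 against 5 and for 5 against 5. With a single probe for 8 genes and a pair for Adora2b and Adk, 12 probes were read. The probes lay well above the local background on 18 of 18 arrays, except that of Adora3, which did so on 17.

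Of all probes, 83.8 to 90.6% lay well above background per array, and arrays correlated with the others of their group at 0.979 to 0.993 on average. All 6 hepatocyte markers (Alb among them) were above background on every array. Summed levels of 9 Kupffer cell and macrophage markers, on a linear scale where 1 is the 75th percentile, ranged from 47.3 to 66.2 for LFD, from 36.4 to 45.3 for LFD MTX50, from 35.4 to 60.3 for HFD and from 57.4 to 82.6 for HFD MTX50. These sums weigh Cd68 and Csf1r most, whose mean log2 levels were 4.51 and 4.29 in LFD but 3.57 and 3.745 in LFD MTX50. The median log2 difference of all 9 markers between these groups was 0.26, so the lower sums do not stand for the list. Sums of 4 erythroid markers were 15.8 to 22.8 in LFD and 10.4 to 22.5 in HFD but 1.13 to 1.66 in LFD MTX50. In HFD MTX50 they were 1.43, 1.90 and 2.60 in mice 1 to 3 and 21.7 and 54.7 in mice 4 and 5. The erythroid sums weigh Hba-a1 and Alas2 most, with mean log2 levels of 3.97 and 1.62 in LFD but -0.86 and -1.37 in LFD MTX50. The remaining erythroid markers had higher means in LFD MTX50 than in LFD, and of the 4 markers 1 was called higher and 2 lower there. In whole liver, fewer cells of a type and less RNA per cell cannot be told apart. The LFD arrays filled slide 1 and the LFD MTX50 arrays slides 2 and 3, with no other group on them. Slide 5 held HFD mice 3 and 4 together with HFD MTX50 mice 1 and 2, so HFD MTX50 vs HFD is the comparison with a slide in common. In the others slide and group cannot be told apart.

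HFD vs LFD, the effect of diet alone, gave a call for 3 of 10 members: Adora1 and Adora3 were higher and Slc29a1 was lower. Of all 19597 genes tested, 28.3% were called in that comparison, 18% higher and 10.4% lower. LFD MTX50 vs LFD, methotrexate on the lean diet, gave a call for 2, Adora1 and Adora3, both higher, against 28.1% of all genes (17.6% higher and 10.5% lower). HFD MTX50 vs HFD, methotrexate on the fat diet, gave a call for Ada alone, which was higher, against 11% of all genes (4.83% higher and 6.13% lower). HFD MTX50 vs LFD MTX50, diet in treated mice, called Adora2a higher and Adk lower, against 16.1% of all genes (7.37% higher and 8.75% lower). The difference between the treatment effects on both diets was called for Adora3 alone, against 26.8% of all genes (8.66% higher and 18.1% lower). Read against these shares, the counts are no result about the set. Background correction by normexp, which models spot and local background together, left 0 members called in each comparison, and 0 to 225 of all genes. The median difference of the 10 members was 0.11, 0.32, 0.11, -0.04 and -0.21 in that order, where all genes had 0.08, 0.10, -0.04, -0.06 and -0.11. The comparisons share groups, so that a low value of LFD enters HFD vs LFD and LFD MTX50 vs LFD alike.

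**Figure D1:**
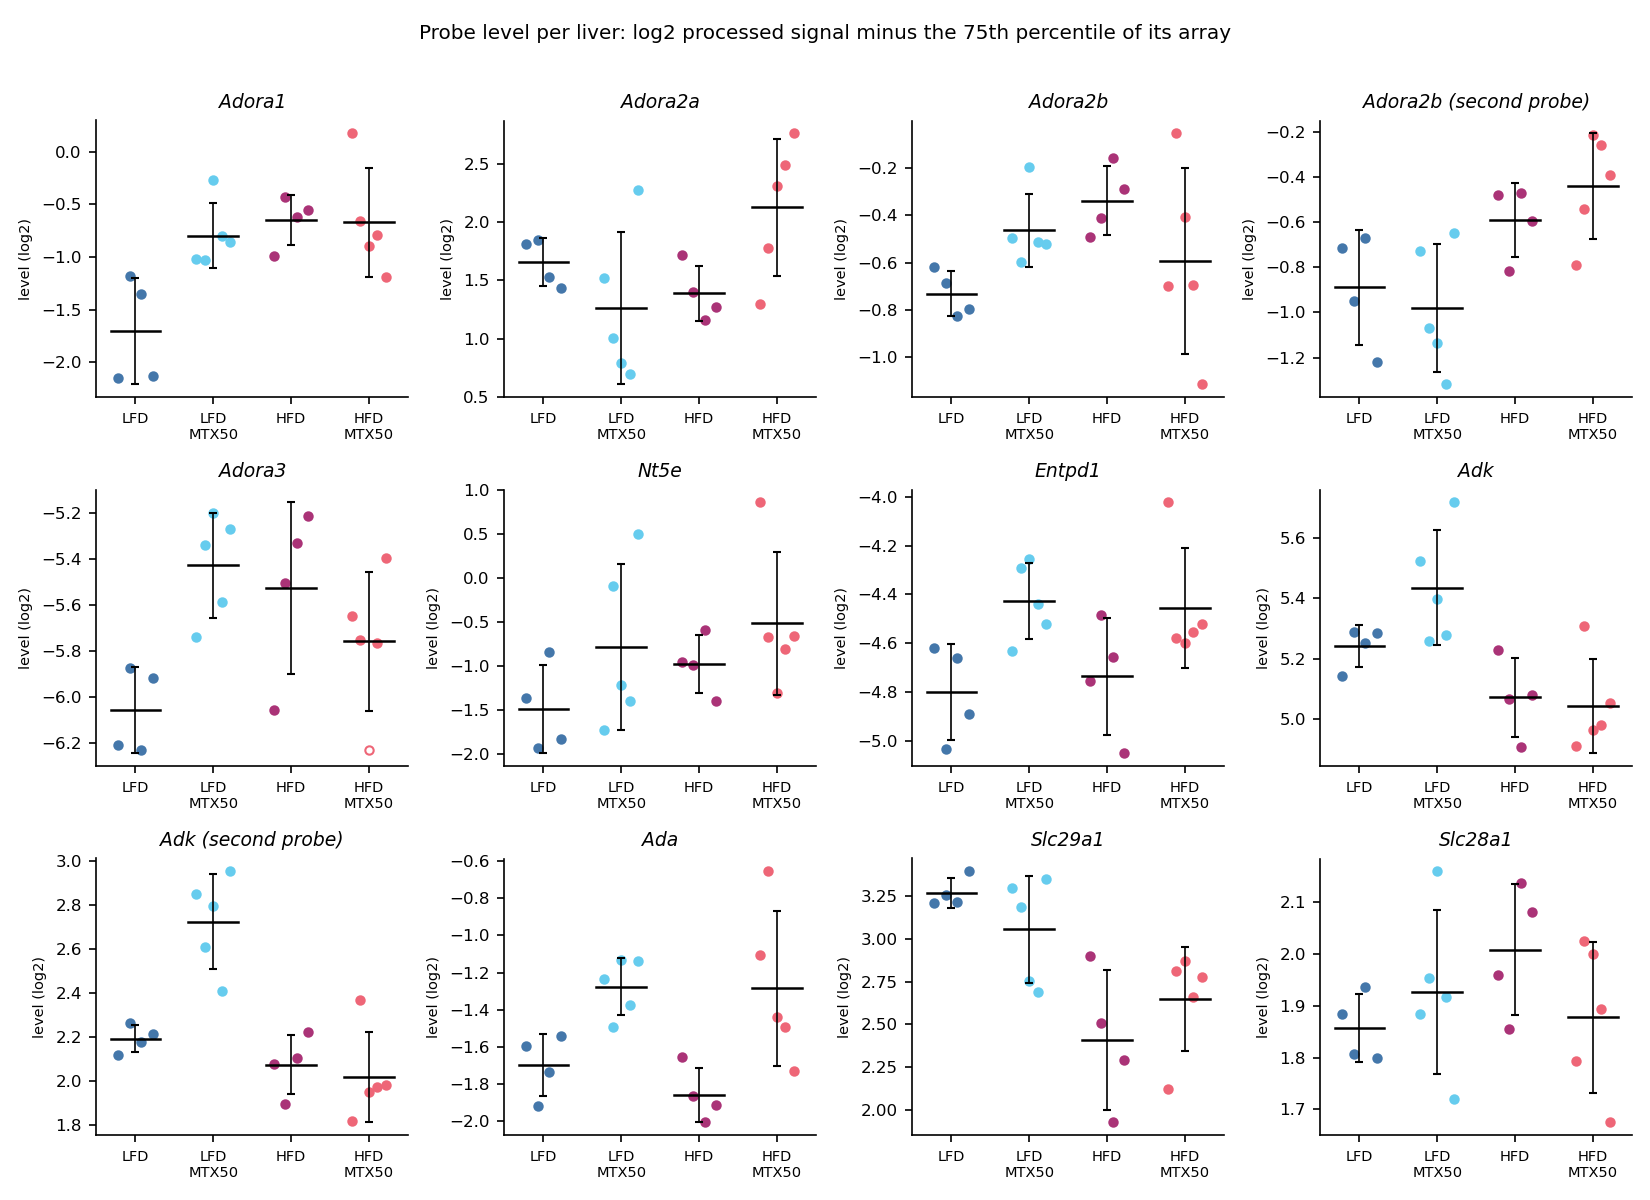
Level of each of the 12 probes in each liver (y axis, log2 of the processed signal minus the array's 75th percentile) by group (x axis), with 1 point per mouse in order of mouse number, a bar at the group mean and whiskers of 1 SD. The open point is the array on which Adora3 was not well above background. Adora1 was lowest in the LFD mice (-1.71 ± 0.51), Slc29a1 highest there (3.27 ± 0.09), and the second Adk probe highest in LFD MTX50 (2.72 ± 0.22).

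Adora1, the A1 receptor, which couples to Gi and lowers cyclic AMP, was higher in HFD and in LFD MTX50 livers than in LFD livers. In LFD mice 1 to 4 its level was -2.15, -1.18, -1.35 and -2.13, and in HFD mice 1 to 4 it was -0.99, -0.43, -0.62 and -0.55. In LFD MTX50 mice 1 to 5 it was -1.02, -1.03, -0.27, -0.80 and -0.86, and in HFD MTX50 mice 1 to 5 it was 0.18, -0.66, -0.90, -0.79 and -1.20. No LFD mouse overlapped the HFD or the LFD MTX50 mice, and LFD mice 1 and 4 were lowest of all. The group means ran from LFD (-1.71 ± 0.51) to LFD MTX50 (-0.80 ± 0.31), HFD MTX50 (-0.67 ± 0.52) and HFD (-0.65 ± 0.24). HFD exceeded LFD by 1.06 ± 0.27 (SE), 2.08-fold, with an adjusted p of 0.0128 in limma and an exact p of 0.029. LFD MTX50 exceeded LFD by 0.91 ± 0.26, 1.88-fold, with an adjusted p of 0.0186 in limma and an exact p of 0.0079. On the fat diet the treated and untreated mice differed by -0.02, with a 95% interval of -0.57 to 0.53. The difference between the treatment effects was -0.93 ± 0.37 and missed the threshold (adjusted p = 0.0669 in limma); it passed without any 1 of LFD mouse 2, HFD mouse 1 or HFD MTX50 mouse 1 (down to 0.0136, without the last). With slide as a random block the adjusted p rose to 0.11 for HFD vs LFD and to 0.143 for LFD MTX50 vs LFD, and the latter call was also lost without LFD mouse 1 (0.0575) or mouse 4. Mybph overlaps Adora1 in RefSeq, and whether the probe lies in the overlap was not looked up.

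Adora3, the A3 receptor, also Gi-coupled and known from mast cells and other leukocytes, was read close to the background. In LFD mice it read -6.21, -5.88, -6.23 and -5.92, and in HFD mice -6.06, -5.51, -5.33 and -5.22. In LFD MTX50 mice it read -5.74, -5.34, -5.20, -5.59 and -5.27, and in HFD MTX50 mice -5.65, -5.75, -6.23, -5.77 and -5.40. The lowest signal counted as well above background lay between -6.90 and -5.88 by array, which these values reach, and HFD MTX50 mouse 3 was not well above background. All LFD mice were below all LFD MTX50 mice, whereas HFD mouse 1 fell among the LFD mice. The means rose from LFD (-6.06 ± 0.19) over HFD MTX50 (-5.76 ± 0.30) and HFD (-5.53 ± 0.37) to LFD MTX50 (-5.43 ± 0.23). LFD MTX50 was higher than LFD by 0.63 ± 0.18 (adjusted p = 0.0192 in limma, exact p = 0.016), and HFD was higher than LFD by 0.53 ± 0.19 (adjusted p = 0.0474 in limma, exact p = 0.086). On the fat diet the treated mice lay at -0.23 against the untreated, with a 95% interval of -0.62 to 0.15. The treatment effects on the diets differed by -0.86 ± 0.26 (adjusted p = 0.023 in limma). Quantile normalization cut these differences to 0.18 in LFD MTX50 vs LFD, 0.18 in HFD vs LFD and -0.26 between the treatment effects, none called, and the slide block gave adjusted p of 0.133, 0.19 and 0.0778. Leaving out LFD mouse 3 ended the call in LFD MTX50 vs LFD (0.0568), leaving out HFD mouse 3 or 4 that between the effects (up to 0.0575), and 12 of 18 single arrays, among them HFD mouse 4 (0.147), that in HFD vs LFD. Tmigd3 overlaps Adora3 in RefSeq, and whether the probe lies in the overlap was not looked up.

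Since Adora1 and Adora3 were called in the same direction in the same comparisons, their promoter windows are shown, 250 bases before to 50 after a RefSeq start on GRCm38.p6. Capitals mark matches on either strand to GGGCGG (the GC box), ACGTG (the core of the hypoxia response element) or TGACG (a part of the cyclic AMP response element); ACGTG and TGACG can share bases. RefSeq lists a pair of starts for Adora1, of which the outer is given, on the minus strand at chr1:134235408-134235707, and 1 for Adora3, on the plus strand at chr3:105904171-105904470.
Adora1: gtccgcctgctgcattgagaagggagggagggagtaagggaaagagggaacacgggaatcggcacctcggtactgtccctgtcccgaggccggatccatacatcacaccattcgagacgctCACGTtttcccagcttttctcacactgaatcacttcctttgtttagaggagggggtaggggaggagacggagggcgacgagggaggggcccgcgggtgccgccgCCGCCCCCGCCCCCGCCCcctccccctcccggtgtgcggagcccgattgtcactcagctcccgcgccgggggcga
Adora3: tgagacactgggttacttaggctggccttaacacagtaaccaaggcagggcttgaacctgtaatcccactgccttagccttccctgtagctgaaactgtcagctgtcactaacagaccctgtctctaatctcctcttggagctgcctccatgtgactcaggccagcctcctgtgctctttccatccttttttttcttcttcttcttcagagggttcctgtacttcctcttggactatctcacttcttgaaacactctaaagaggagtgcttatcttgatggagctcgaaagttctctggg
The Adora1 window is 66% G and C with 26 CpG and holds 3 GC boxes and 1 ACGTG. That of Adora3 is 48.3% G and C with 1 CpG and holds none of the motifs. The window of the inner Adora1 start, not shown, is 66% G and C with 24 CpG and also holds none of them. Over all 32817 windows the medians were 52.7% and 7 CpG, and 35.6% held a GC box, 19.6% an ACGTG and 20.8% a TGACG.

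Adora2a, the high-affinity receptor that couples to Gs and damps immune cells, was higher in treated mice on the fat diet than in treated mice on the lean diet. In LFD mice it read 1.81, 1.85, 1.53 and 1.44, and in HFD mice 1.71, 1.40, 1.16 and 1.27. In LFD MTX50 mice it read 1.52, 1.01, 0.79, 0.70 and 2.28, and in HFD MTX50 mice 1.29, 1.77, 2.31, 2.49 and 2.76. The treated groups had SDs of 0.65 and 0.59, the untreated of 0.20 and 0.24. The treated groups overlapped, with LFD MTX50 mice 1 and 5 inside the HFD MTX50 range, while HFD MTX50 mice 3, 4 and 5 lay above every LFD MTX50 mouse. From the lowest mean the order was LFD MTX50 (1.26 ± 0.65), HFD (1.39 ± 0.24), LFD (1.66 ± 0.20) and HFD MTX50 (2.12 ± 0.59). Of the comparisons made, only that between the ends of this order passed: HFD MTX50 exceeded LFD MTX50 by 0.87 ± 0.29, 1.82-fold (adjusted p = 0.0495 in limma, exact p = 0.063). HFD MTX50 against HFD was 0.74 ± 0.31 (adjusted p = 0.115) and, between the mice of slide 5 alone, 0.32; without HFD MTX50 mouse 1 it passed (0.0411). LFD MTX50 against LFD was -0.40 with a 95% interval of -1.05 to 0.25, and the difference between the treatment effects was 1.14 ± 0.43 (adjusted p = 0.0596 in limma), which passed without any 1 of 4 arrays (down to 0.0138, without LFD MTX50 mouse 5) and with scaling to the median of always detected probes. The call did not hold up well, since 15 of 18 single arrays ended it when left out (up to 0.124, without LFD MTX50 mouse 3), as did, among other settings, the slide block (0.251), the 2 groups alone (0.143), quantile normalization (0.0506) and no filter on dim probes (0.0572). Kupffer cell and macrophage sums, which weigh Cd68 and Csf1r most, stood at 57.4 to 82.6 in HFD MTX50 and 36.4 to 45.3 in LFD MTX50, with no overlap. The median difference of the 9 markers was 0.40, and 2 were called higher. Neutrophil marker sums were 45.0, 77.8, 79.4, 93.9 and 123 in HFD MTX50 mice 1 to 5, against 50.5 to 57.6 in LFD MTX50, and the erythroid sums of the same HFD MTX50 mice were those given above. The neutrophil sums weigh Elane most, with means of 6.08 in HFD MTX50 and 5.70 in LFD MTX50. Of the 5 neutrophil markers 0 were called between these groups, with a median difference of 1.17. Within HFD MTX50 the neutrophil and erythroid sums ordered the mice as Adora2a did, lowest in mouse 1 and highest in mouse 5. The hepatocyte sums did so as well (708, 905, 926, 970 and 985), so this order is not particular to 1 cell type. The remaining marker lists gave other orders. LFD MTX50 mouse 5, the highest Adora2a of its group, had neutrophil, erythroid and hepatocyte sums of 53.6, 1.13 and 966. Slide ran along with Adora2a as well, with HFD MTX50 mice 1 and 2 on slide 5 and mice 3, 4 and 5 on slide 6. LFD MTX50 mouse 5 was alone on slide 3. The part of these cell types in the result was not tested.

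Adora2b, the A2B receptor, a Gs-coupled receptor of low affinity, was read by a pair of probes that are given separately. The brighter probe read -0.62, -0.68, -0.82 and -0.79 in LFD and -0.49, -0.41, -0.16 and -0.29 in HFD mice. It read -0.50, -0.60, -0.19, -0.51 and -0.52 in LFD MTX50 and -0.70, -0.05, -0.41, -0.70 and -1.11 in HFD MTX50 mice. The LFD mice lay below all HFD and all LFD MTX50 mice, by 0.39 ± 0.17 and 0.27 ± 0.16, yet neither passed limma (adjusted p = 0.0853 and 0.208; exact p = 0.029 and 0.016). Groups without overlap were seen for 3 of 10 members in HFD vs LFD and 4 of 10 in LFD MTX50 vs LFD, against 40.3% and 29.1% of all genes, and for 0 of 10 in HFD MTX50 vs HFD and in HFD MTX50 vs LFD MTX50, against 11.4% and 6.1%, so the lack of overlap sets no member apart. The second probe lay between -1.22 and -0.67 in LFD and between -0.82 and -0.47 in HFD mice. It read -0.73, -1.07, -1.14, -1.32 and -0.65 in LFD MTX50 and -0.79, -0.54, -0.22, -0.26 and -0.39 in HFD MTX50 mice, and HFD MTX50 was higher by 0.54 ± 0.15 (adjusted p = 0.0255 in limma, exact p = 0.024). The brighter probe had -0.13 with a 95% interval of -0.45 to 0.19 in that comparison. Within an array, the second probe minus the brighter was -0.52 ± 0.35 in LFD MTX50 and 0.15 ± 0.47 in HFD MTX50, a difference of 0.67 with an exact p of 0.04 and, over the 8 such tests made on Adora2b and Adk, an adjusted p of 0.11. The call of the second probe was lost with the slide block (0.201) and without any of 5 single arrays (up to 0.0663, without HFD MTX50 mouse 4), and with the 2 groups alone (0.0828), so no direction is given for Adora2b.

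**Figure D2:**
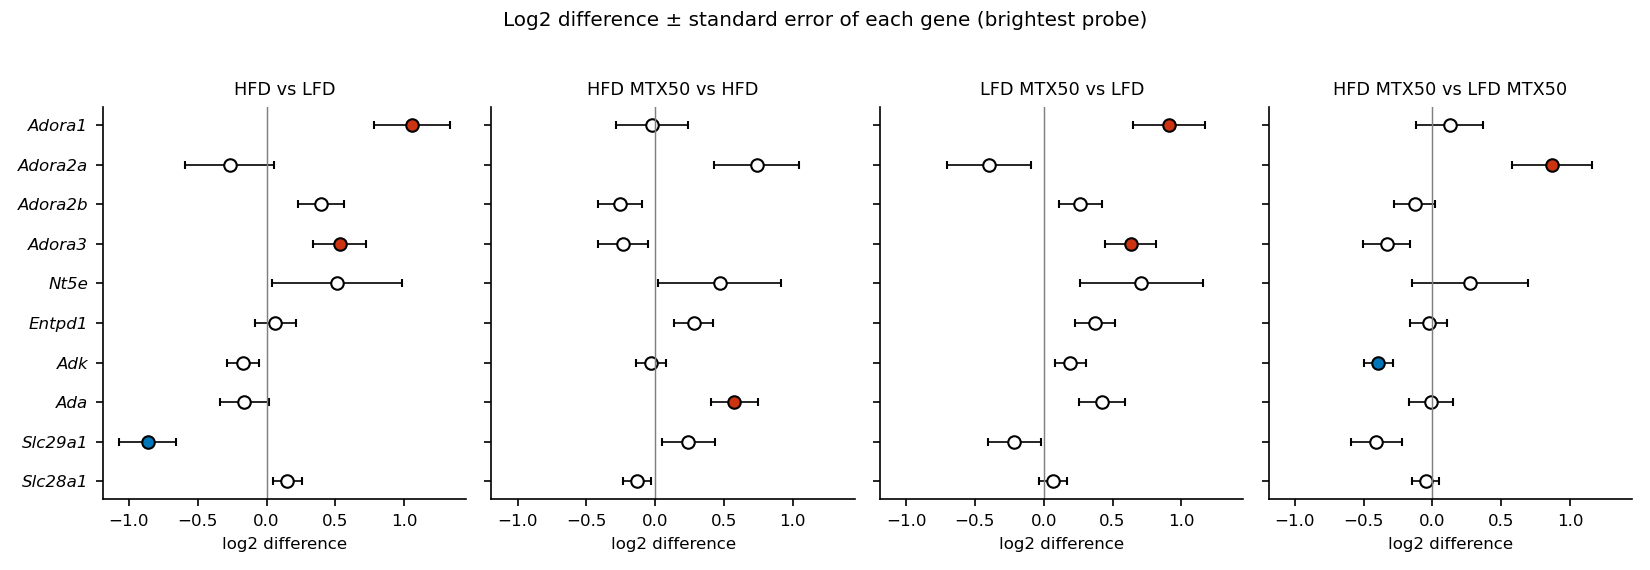
Log2 difference of each gene on its brightest probe (x axis, point with whiskers of 1 SE from limma) in the 4 comparisons, 1 panel each. Red points were called higher and blue points lower at an adjusted p below 0.05. Adora1 stood at 1.06 and 0.91 in the comparisons with LFD and at -0.02 in HFD MTX50 vs HFD, and Slc29a1 at -0.86 in HFD vs LFD.

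Entpd1 and Nt5e, the ectoenzymes that lead from ATP over AMP to adenosine outside the cell, were called in none of the comparisons. Nt5e, CD73, had the largest SDs of the members in the treated groups, 0.95 in LFD MTX50 and 0.82 in HFD MTX50. It read -1.36, -1.94, -0.84 and -1.84 in LFD and -0.96, -0.99, -0.59 and -1.40 in HFD mice. It read -1.73, -0.09, -1.22, -1.40 and 0.50 in LFD MTX50 and 0.87, -0.67, -1.31, -0.81 and -0.66 in HFD MTX50 mice. The highest values came from 3 treated mice, LFD MTX50 mice 2 and 5 and HFD MTX50 mouse 1, and the remaining treated mice lay within the range of the untreated mice, so the groups overlapped throughout. The means rose from LFD (-1.50 ± 0.50) over HFD (-0.99 ± 0.33) and LFD MTX50 (-0.79 ± 0.95) to HFD MTX50 (-0.52 ± 0.82), and none of the 4 comparisons passed. The largest difference, LFD MTX50 against LFD, was 0.71 ± 0.45 with a 95% interval of -0.24 to 1.66 (adjusted p = 0.234 in limma), so that neither a rise of 2-fold nor no change lies outside the interval. Entpd1, CD39, read -4.62, -5.03, -4.66 and -4.89 in LFD and -4.63, -4.29, -4.26, -4.44 and -4.52 in LFD MTX50 mice. The groups overlapped in LFD MTX50 mouse 1, and the difference of 0.37 ± 0.14 missed the threshold (adjusted p = 0.0581 in limma, exact p = 0.024). In HFD mice Entpd1 read -4.75, -4.48, -4.66 and -5.05, and in HFD MTX50 mice -4.02, -4.58, -4.60, -4.56 and -4.52. Of the HFD MTX50 mice, mouse 1 stood alone above the others, and the difference from HFD was 0.28 ± 0.14 (adjusted p = 0.188), or 0.55 between the mice of slide 5.

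Adk, adenosine kinase, which clears adenosine in the liver by phosphorylation, was read by a pair of probes that the array annotates with different RefSeq transcripts. The brightest read 5.14, 5.29, 5.25 and 5.28 in LFD and 5.23, 5.07, 4.91 and 5.08 in HFD mice. It read 5.52, 5.26, 5.40, 5.28 and 5.72 in LFD MTX50 and 4.91, 5.31, 4.96, 4.98 and 5.05 in HFD MTX50 mice. The treated mice of the diets overlapped by HFD MTX50 mouse 2 alone. Means ran from HFD MTX50 (5.04 ± 0.16) and HFD (5.07 ± 0.13) to LFD (5.24 ± 0.07) and LFD MTX50 (5.43 ± 0.19), with a difference between the ends of -0.39 ± 0.10, 1.31-fold lower in HFD MTX50 (adjusted p = 0.0206 in limma, exact p = 0.024). The second probe read 2.12, 2.26, 2.18 and 2.22 in LFD and 2.08, 1.90, 2.11 and 2.22 in HFD mice. It read 2.85, 2.61, 2.79, 2.41 and 2.95 in LFD MTX50 and 1.82, 2.37, 1.95, 1.97 and 1.98 in HFD MTX50 mice. On this probe every LFD MTX50 mouse lay above every mouse of the other groups. LFD MTX50 exceeded LFD by 0.53 ± 0.12, 1.44-fold (adjusted p = 0.00712 in limma, exact p = 0.016), where the brightest probe had 0.19 with a 95% interval of -0.04 to 0.43. HFD MTX50 was lower than LFD MTX50 by 1.63-fold (-0.71 ± 0.12, adjusted p = 0.00433 in limma, exact p = 0.0079), and the treatment effects on the diets differed by -0.59 ± 0.17 (adjusted p = 0.0218 in limma).

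The Adk probes also parted within an array. The second minus the brightest was -3.05 ± 0.03 in LFD, -3.00 ± 0.19 in HFD, -3.02 ± 0.06 in HFD MTX50 and -2.71 ± 0.11 in LFD MTX50. No LFD MTX50 array overlapped the LFD or the HFD MTX50 arrays. The gap between LFD MTX50 and LFD was 0.34 (exact p = 0.016) and between HFD MTX50 and LFD MTX50 -0.31 (exact p = 0.0079), both with an adjusted p of about 0.06 over the 8 tests (0.064 and 0.063), which were added after the levels had been seen. The calls of the second probe in LFD MTX50 vs LFD and HFD MTX50 vs LFD MTX50 held without each single array in turn (adjusted p up to 0.0212 and 0.0144) and were lost with slide as a random block (0.0778 and 0.0616), the latter also with the fit on the 2 groups alone (0.0599). Its call between the treatment effects was lost with that block (0.0788), with scaling to the median of always detected probes (0.0602) and without HFD mouse 4 (0.0535), and the call of the brightest probe was lost with that block (0.124) and without HFD MTX50 mouse 4 (0.0524), and with the 2 groups alone (0.0907). All LFD MTX50 arrays came from slides with no other group. RefSeq lists a pair of Adk starts on the plus strand, at chr14:21052324-21052623 and chr14:21075902-21076201. Their windows are shown because the probes carry different transcript annotations; whether a probe also matches the other transcript, and which start each transcript uses, was not looked up.
Adk start 1: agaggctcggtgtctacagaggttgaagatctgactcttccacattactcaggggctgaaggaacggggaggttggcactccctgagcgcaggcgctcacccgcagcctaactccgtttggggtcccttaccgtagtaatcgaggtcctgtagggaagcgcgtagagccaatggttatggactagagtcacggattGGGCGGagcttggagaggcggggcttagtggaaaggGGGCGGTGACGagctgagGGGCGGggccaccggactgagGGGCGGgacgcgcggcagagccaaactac
Adk start 2: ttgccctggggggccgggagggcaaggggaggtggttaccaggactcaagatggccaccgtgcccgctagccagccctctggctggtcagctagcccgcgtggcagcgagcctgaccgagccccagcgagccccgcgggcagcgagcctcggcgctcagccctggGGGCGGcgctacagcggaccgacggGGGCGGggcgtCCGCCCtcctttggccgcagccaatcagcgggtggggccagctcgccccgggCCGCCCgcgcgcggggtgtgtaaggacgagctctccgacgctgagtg
The first window is 61.7% G and C with 21 CpG, and the other 75% with 33 CpG. Each holds 4 GC boxes, and the first also 1 TGACG.

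**Figure D3:**
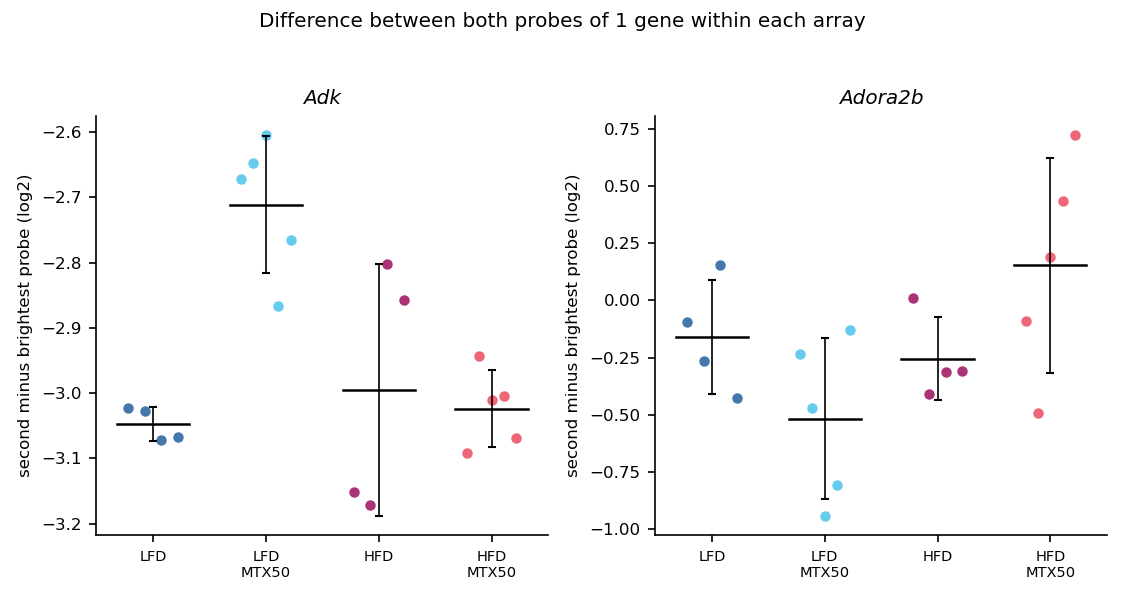
Level of the second probe minus that of the brightest probe in the same array (y axis, log2) for Adk and Adora2b by group (x axis), 1 point per mouse, with the mean and whiskers of 1 SD. The Adk difference was -2.71 ± 0.11 in LFD MTX50 and -3.05 ± 0.03 in LFD, with no overlap.

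Ada, adenosine deaminase, which turns adenosine into inosine, was higher in treated than in untreated mice on the fat diet. It read -1.60, -1.92, -1.73 and -1.54 in LFD and -1.24, -1.49, -1.13, -1.37 and -1.14 in LFD MTX50 mice. It read -1.65, -1.86, -2.00 and -1.91 in HFD and -1.11, -0.65, -1.44, -1.49 and -1.73 in HFD MTX50 mice. On the lean diet all treated mice lay above all untreated mice, whereas on the fat diet HFD MTX50 mouse 5 fell into the HFD range. The means were lowest in HFD (-1.86 ± 0.15) and LFD (-1.70 ± 0.17) and highest in HFD MTX50 (-1.28 ± 0.42) and LFD MTX50 (-1.27 ± 0.15). On the fat diet the difference was 0.57 ± 0.17, 1.49-fold (adjusted p = 0.0404 in limma, exact p = 0.032), and on the lean diet 0.42 ± 0.17 (adjusted p = 0.0692 in limma, exact p = 0.016), which was not called. The difference between these effects was 0.15 with a 95% interval of -0.36 to 0.66. Between the mice of slide 5 alone, 2 per group, the difference on the fat diet was 1.08 (adjusted p = 0.00597 in limma with slide as a fixed block). The mice of the other slides lay closer together. HFD mice 1 and 2 on slide 4 read -1.65 and -1.86, and HFD MTX50 mice 3, 4 and 5 on slide 6 read -1.44, -1.49 and -1.73. The call was lost without any of 7 single arrays, among them HFD mouse 3 (0.134), and with the limma fit on the 2 groups alone (0.128) or the values the authors deposited as a series table (0.0673).

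Slc29a1, the equilibrative nucleoside transporter ENT1, which lets adenosine pass along its gradient, was lower in HFD than in LFD livers. LFD mice read 3.21, 3.26, 3.22 and 3.40, and HFD mice 2.90, 2.51, 1.93 and 2.29. LFD MTX50 mice read 3.30, 3.19, 2.76, 2.69 and 3.35, and HFD MTX50 mice 2.12, 2.82, 2.87, 2.66 and 2.78. All HFD mice lay below all LFD mice, and HFD mouse 3 was lowest. HFD was 1.82-fold lower (-0.86 ± 0.21, adjusted p = 0.00909 in limma, exact p = 0.029). The means fell from LFD (3.27 ± 0.09) over LFD MTX50 (3.06 ± 0.31) and HFD MTX50 (2.65 ± 0.31) to HFD (2.41 ± 0.41), and no neighbours in this order were told apart. HFD MTX50 against HFD was 0.24 with a 95% interval of -0.17 to 0.66, and HFD MTX50 against LFD MTX50 was -0.41 ± 0.18 (adjusted p = 0.129 in limma). The call held when each single array was left out, the highest adjusted p being 0.04 without HFD mouse 3, and was lost with slide as a random block (0.0725). Slc28a1, the sodium-coupled nucleoside transporter CNT1, lay between 1.67 and 2.16 in all 18 livers, and its differences ran from -0.13 to 0.15. Its 95% intervals of the 4 comparisons between groups reached from -0.35 to 0.38, the narrowest range of the members.

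HFD MTX50 mouse 1 had the highest Adora1, Nt5e and Entpd1 of all 18 livers and the lowest Adora2a and Slc29a1 of its group. By the smallest mean absolute difference from a called member over the 18 arrays, each gene minus its own mean, the nearest of 19400 other genes were as follows. Adora2a lay nearest Mtr (0.0989), the gene of methionine synthase, Rhobtb1 and Prdm1 (both 0.125), where its own levels deviated from their mean by 0.45. Adora1 lay nearest Scgb1c1 (0.222), 1700011L22Rik (0.23) and Galnt14 (0.234), with a deviation of its own of 0.401. Adora3 lay nearest Stk33 (0.121), Gdf7 (0.127) and Dio3 (0.135), with 0.294 of its own. Slc29a1 lay nearest Cdkn2aip (0.164), Dnajc7 (0.176) and Safb (0.18), with 0.342 of its own. Ada lay nearest Tpp1 (0.134), Ttpa (0.135) and Zfp318 (0.142), with 0.271 of its own, and Adk nearest Ahsg (0.0896), Serinc1 (0.0922) and Cdca4 (0.0952), with 0.169 of its own. These are descriptions of 18 shared arrays with no test.

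Calls were also counted on a list of 38 other genes, most of which make, convert or carry purines, and 37 were tested. In HFD vs LFD 5 were higher and 6 lower, while HFD MTX50 vs HFD had 2 and 3. On the lean diet LFD MTX50 vs LFD had 6 higher and 4 lower, and between the treated groups (HFD MTX50 vs LFD MTX50) there were 2 and 5. Of all genes, 28.3, 11, 28.1 and 16.1% were called in these comparisons, and read against these shares the counts are no result about the list. The median differences were -0.08, 0.06, -0.02 and -0.11, against 0.08, -0.04, 0.10 and -0.06 over all genes. Entpd3, an ectonucleotidase like CD39, was not well above background in any LFD mouse and was at least 1.65-fold higher in HFD (adjusted p = 0.00349 in limma) and at least 1.43-fold higher in LFD MTX50, where 4 of 5 arrays measured it (adjusted p = 0.00389 in limma). The lower group is set there at the lowest signal counted as well above background on each array. Enpp3, an ectonucleotide pyrophosphatase, was lower in HFD than in LFD by 1.86-fold (-0.89 ± 0.21, adjusted p = 0.0082 in limma). Slc28a2, the concentrative transporter CNT2 for purine nucleosides, was 2.18-fold higher in HFD MTX50 than in HFD (1.12 ± 0.22, adjusted p = 0.00918 in limma). Ahcy, which splits S-adenosylhomocysteine into adenosine and homocysteine, was 1.77-fold higher in LFD MTX50 than in LFD (0.82 ± 0.15, adjusted p = 0.00288 in limma) and 2.38-fold lower in HFD MTX50 than in LFD MTX50 (-1.25 ± 0.15, adjusted p = 0.000851 in limma). Uox, urate oxidase, was lower in HFD MTX50 than in LFD MTX50 by 1.63-fold (-0.71 ± 0.15, adjusted p = 0.00907 in limma). These named calls held without each single array in turn. The counts did not: leaving out 1 array gave 4 to 12, 1 to 8, 7 to 12 and 3 to 9 called genes in the same order, with the lowest without HFD mouse 4, HFD mouse 3, LFD mouse 2 and LFD MTX50 mouse 3. With slide as a random block they were 1, 5, 0 and 1. Of the calls named, those of Slc28a2 in HFD MTX50 vs HFD and of Ahcy in HFD MTX50 vs LFD MTX50 held with that block and the others did not. With the fit on the 2 groups alone, the calls of Slc28a2 in HFD MTX50 vs HFD (0.0716) and of Uox (0.0641) were lost, and that of Ahcy between the treated groups stood at 0.0483.

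**Figure D4:**
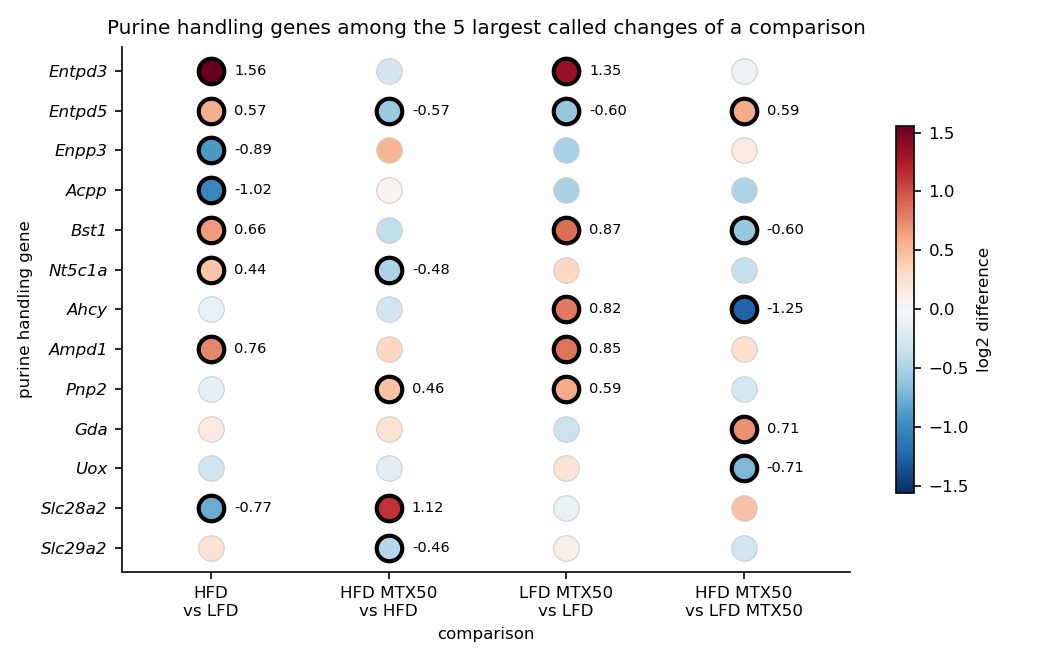
Log2 difference (colour, with the value printed where called) of the 13 purine handling genes (rows) that were among the 5 largest called changes of any of the 4 comparisons (columns). Thick outlines mark calls at an adjusted p below 0.05. Entpd3 and Ampd1 were not well above background in any LFD mouse, and Bst1 was in only 1 of 4. The printed values of these genes against LFD are therefore not sizes. Slc28a2 stood at -0.77 in HFD vs LFD and at 1.12 in HFD MTX50 vs HFD.

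Downstream of the receptors, 26 of 27 listed genes of G proteins, adenylyl cyclases, phosphodiesterases, protein kinase A and cyclic AMP targets were tested. In HFD vs LFD 5 were higher and 2 lower, while HFD MTX50 vs HFD had 0 and 2. On the lean diet LFD MTX50 vs LFD had 1 higher and 2 lower, and between the treated groups there were 2 and 1. Of all genes, 28.3, 11, 28.1 and 16.1% were called in these comparisons, so the counts are no result about the list. Pde4d, a cyclic AMP phosphodiesterase, was higher in HFD than in LFD by 1.63-fold (0.70 ± 0.18, adjusted p = 0.011 in limma), and Nr4a3, an orphan nuclear receptor induced by cyclic AMP, was called higher there (adjusted p = 0.00862 in limma) but was above background on 4 of 4 HFD and only 1 of 4 LFD arrays, so no size is given. Nr4a1 of the same family was lower in LFD MTX50 than in LFD by 1.49-fold (-0.58 ± 0.16, adjusted p = 0.0162 in limma). Pde3b, the phosphodiesterase that insulin activates, was lower in HFD MTX50 than in LFD MTX50 by 1.54-fold (-0.62 ± 0.11, adjusted p = 0.00624 in limma). Each of these calls held with any single array left out. The counts then ran from 4 to 10, 0 to 4, 2 to 6 and 1 to 4, with the lowest reached without LFD mouse 2, HFD mouse 2, LFD mouse 1 and LFD MTX50 mouse 2. With slide as a random block they were 0, 2, 0 and 0, and none of the calls named held. With the 2 groups alone that of Pde3b was lost (0.0609). The medians were -0.02, -0.09, 0.04 and -0.06, against 0.08, -0.04, 0.10 and -0.06 over all genes.

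Receptors named P2rx or P2ry were counted on a list of 13, all tested. Most of them answer to extracellular nucleotides of adenine (ATP, ADP) or uridine (UTP, UDP-glucose). In HFD vs LFD 2 were higher and none lower, while HFD MTX50 vs HFD had 1 higher and 0 lower. On the lean diet LFD MTX50 vs LFD had 2 higher and 1 lower, and between the treated groups there were also 2 and 1. Of all genes, 28.3, 11, 28.1 and 16.1% were called in these comparisons, so the counts are no result about the list. P2rx1, an ATP-gated channel, was higher in LFD MTX50 than in LFD by 1.65-fold (0.73 ± 0.14, adjusted p = 0.00338 in limma) and lower in HFD MTX50 than in LFD MTX50 by 1.50-fold (-0.59 ± 0.13, adjusted p = 0.0115 in limma). P2rx7, the ATP-gated channel of macrophages, was 1.41-fold higher in HFD MTX50 than in HFD (0.50 ± 0.11, adjusted p = 0.0165 in limma), a call that was lost without HFD mouse 4 (0.0674), and 1.38-fold higher than in LFD MTX50 (0.46 ± 0.11, adjusted p = 0.0124 in limma). Kupffer cell and macrophage sums were also higher in HFD MTX50 than in LFD MTX50, as given above, and their part was not tested. P2ry4, a UTP receptor, varied widely, with means of -1.08 ± 0.94 for LFD, -4.12 ± 1.37 for LFD MTX50, -2.37 ± 2.33 for HFD and -1.06 ± 0.98 for HFD MTX50. LFD MTX50 was lower than LFD by 8.26-fold (-3.05 ± 0.77, adjusted p = 0.0124 in limma) and HFD MTX50 8.38-fold higher than LFD MTX50 (3.07 ± 0.73, adjusted p = 0.0157 in limma). The medians were 0.04, 0.24, 0.16 and 0.22, against 0.08, -0.04, 0.10 and -0.06 over all genes. With slide as a random block 0, 1, 0 and 0 receptors were called, the 1 being P2rx7. Slide as a fixed block left P2rx7 uncalled when HFD MTX50 was set against HFD (adjusted p = 0.166 in limma). With the 2 groups alone the calls of P2rx7 (0.0715 against HFD and 0.0622 against LFD MTX50) were lost, as were those of P2rx1 (0.0627) and P2ry4 (0.0601) between the treated groups. Normexp left 0 genes of the 3 lists called in any comparison.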

How the data were processed

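Liver RNA of 18 mice was measured on Agilent 4x44K single-colour arrays and grouped by the titles of the samples. Per the submitters' processing notes the authors used Agilent Feature Extraction 10.7.3.1 to read the arrays, and the deposited values are intensity values on a linear scale that the software had corrected for background within each array; the deposited table of the series holds background-subtracted intensity values of the same scans, rounded. The labels name a low input amplification kit and the methods another, so the kit is unsettled. Levels were the log2 of the processed signal minus the 75th percentile of the array. Outlier spots (124 to 294 per array) were dropped, 0 spots were saturated, and repeated spots were averaged. Probes well above background on at least 4 arrays were kept (35735 of 39429), and 71.08% of probes were named through RefSeq of GRCm38.p6. A gene was read on its brightest probe. limma 3.58.1 in R 4.3.3 fitted all 18 arrays with 1 mean per group, with Benjamini-Hochberg adjustment over kept probes, and the fit was tested on simulated data. With 4 or 5 arrays per group their number limits the precision. The members and gene lists were chosen with earlier results of these data known. Named genes were all members, at most 5 called genes per list and comparison by size, at most 3 markers per list, and the 3 genes nearest each called member. Markers of 9 cell types were counted the same way. Alternatives were other background correction, scaling, filters, the series table, variance trend, slide and replicate blocks, the 2 groups alone, probe means, fold thresholds and leaving out each array.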

Additional observations from a re-analysis of the deposited data

Results flagged for a closer look

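HFD MTX50 mouse 1 lay apart from the other HFD MTX50 mice for Entpd1 (-4.02, the others at -4.60 to -4.52) and for Slc29a1 (2.12, the others at 2.66 to 2.87). LFD MTX50 mouse 3 lay apart for Adora2b on the brighter probe (-0.19, the others at -0.60 to -0.50). These are 3 of 40 groups of member values examined for a mouse far from the rest, and chance picks about 1 group in 20 this way. The treatment effect on Adora3 differed between the diets by -0.86 (adjusted p = 0.023 in limma), with LFD MTX50 above LFD by 0.63 and HFD MTX50 against HFD at -0.23.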

How the results depend on the processing

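With an adjusted p below 0.05 the members called numbered 3 for HFD vs LFD, 1 when HFD MTX50 was set against HFD, 2 for LFD MTX50 vs LFD, 2 for HFD MTX50 vs LFD MTX50 and 1 for the difference between the treatment effects. In the same order, a 2-fold change required as well, with an adjusted p below 0.05 or an unadjusted p up to 0.015, gave 1, 0, 0, 0 and 0, and normexp 0 in each. Slide as a random block gave 0, 1, 0, 0 and 0. Quantile normalization gave 2 for HFD MTX50 vs HFD, 1 in LFD MTX50 vs LFD and 1 in HFD MTX50 vs LFD MTX50. The series table gave 0 in HFD MTX50 vs HFD and 1 in HFD MTX50 vs LFD MTX50, where no filter and the mean of a gene's probes also gave 1. The 2 groups alone gave 0 in HFD MTX50 vs HFD, 4 in LFD MTX50 vs LFD and 0 in HFD MTX50 vs LFD MTX50. Probes above background on all 18 arrays, which leave out Adora3, gave 1 in LFD MTX50 vs LFD and 0 for the difference between the effects, and scaling to the median of always detected probes gave 2 there. Leaving out 1 array gave 2 to 4, 0 to 1, 1 to 3, 0 to 2 and 0 to 3. The cause of these changes was not tested, save where fewer probes or samples were used.

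The replicate number as a block gave 3, 0, 2, 2 and 2 members, against 3, 1, 2, 2 and 1 without it. The 25 pairs of arrays with the same number in different groups had correlations of -0.314 to 0.255, with 7 over 0.1, so the samples share only a number.

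Of 9 called results of members, 0 were called under every setting and 2 without each single array. Of the 50 member results, called or not, 36 kept their sign under every setting, the 9 called ones among them. Adora3 in HFD MTX50 vs HFD, not called, ran from -0.43 to 1.14. Called results of the gene lists turned direction under normexp for Slc28a2 in HFD vs LFD (0.60) and Bst1 in HFD MTX50 vs LFD MTX50 (0.95). In HFD MTX50 vs HFD those of Nt5c1a (0.30) and Slc29a2 (0.87) did so too. With the mean of probes Ahcyl1 turned in LFD MTX50 vs LFD (0.12) and between the effects (-0.064). Normexp moved the median of all genes from 0.08 to 0.37 for HFD vs LFD. Scaling to the median of always detected probes moved the share of higher genes among all called from 63.4 to 45.5% there, from 62.7 to 44.4% in LFD MTX50 vs LFD, from 45.7 to 57.2% in HFD MTX50 vs LFD MTX50 and from 32.4 to 51.3% for the difference between the effects. Normexp was run on the median spot signal, chosen after seeing the data; the planned run on the mean spot signal was not run. Signal over background limits Adora3.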

Other observations

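Markers of the cell types that a whole liver holds were counted as higher and lower for diet alone (HFD vs LFD), treatment on the fat diet (HFD MTX50 vs HFD), treatment on the lean diet (LFD MTX50 vs LFD) and diet in treated mice (HFD MTX50 vs LFD MTX50), in this order. Of 6 hepatocyte markers tested, the counts were 0 and 0, 0 and 0, 1 and 0 and then 0 and 2. Of 9 Kupffer cell and macrophage markers tested, the counts were 0 and 1, 0 and 0, 0 and 2 and then 2 and 0. Of 7 endothelial markers tested, the counts were 0 and 0, 0 and 1, 0 and 0 and then 0 and 1. Of 6 stellate markers tested, the counts were 0 and 0, 0 and 0, 1 and 0 and then 0 and 1. Of 8 lymphocyte markers tested, the counts were 2 and 0, 0 and 1, 1 and 0 and then 0 and 1. Of 5 neutrophil markers tested, the counts were 0 and 1, 0 and 0, 0 and 1 and then 0 and 0. Of 4 cholangiocyte markers tested, the counts were 0 and 1, 0 and 0, 1 and 0 and then 0 and 1. Of 4 erythroid markers tested, the counts were 0 and 0, 0 and 0, 1 and 2 and then 1 and 0. Of 3 mesothelial and adipose markers tested, the counts were 0 and 0, 1 and 0, 1 and 0 and then 0 and 0. Of all genes, 28.3, 11, 28.1 and 16.1% were called in these comparisons. Ncr1, Upk3b and Wt1 were each above background on 6 of 18 arrays. Summed neutrophil markers were 68.6 to 82.1 in LFD, 50.5 to 57.6 in LFD MTX50, 47.6 to 67.8 in HFD and 45.0 to 123 in HFD MTX50. These sums weigh Elane most, the brightest of them, with means of 6.25 in LFD and 5.70 in LFD MTX50. The means of the other neutrophil markers were higher in LFD MTX50 than in LFD, none of them called. Over the 5 markers the median difference was 0.157, 2.265, 1.421 and 1.173 in the order above, so the sums do not stand for the list. The part of the cell types in the members' values was not tested.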
